A study of Homo sapiens with 12 samples.

Results

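The PIM kinase genes PIM1, PIM2 and PIM3 were followed in THP-1 cells after 2 hours of a transcriptional kinase inhibitor. These are 3 of the 30599 named human genes with counts in the table. The family was taken up with earlier results of these data known. Each gene's transcript row was chosen by its total count over the 12 libraries, the highest being used, so the choice of row rests on no difference between groups. That choice left out almost nothing. PIM1-201 held 100.0% of the counts of the PIM1 rows, PIM2-201 held 99.92% and PIM3-201 held 99.99%. The rows not chosen had totals of 0 for PIM1, at most 10 for PIM2 and 2 for PIM3 over the 12 libraries. All 3 genes passed the filter on low counts.

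PIM kinases are serine/threonine kinases that are active as soon as they are made, because they lack the regulatory domains that hold most kinases off. Their activity therefore follows the amount of mRNA and protein, and both are short-lived. Cytokine receptors and mutant FLT3 induce them through JAK kinases and STAT factors. In myeloid leukaemia they are known for promoting survival and cap-dependent translation alongside AKT, with substrates such as the death promoter BAD. PIM1 is the founding member, first found at a retroviral insertion site in mouse lymphomas, while PIM2 is known for cap-dependent translation in blood cancers and PIM3 is the member also studied in gut and liver tumours.

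THP-1 is an established acute myeloid leukaemia line that carries an MLL-AF9 fusion, so all groups are 1 line. Cells were given AZ5576, THZ531, YKL5124 or DMSO, the vehicle, for 2 hours. In addition 1 mM 4-thiouridine, a nucleoside that marks new RNA, was present in the final 10 minutes in every group, DMSO included. CDK9 is the known target of AZ5576, CDK12 and CDK13 are those of THZ531, and CDK7 is that of YKL5124. Doses are not in the labels. Each group had 3 libraries of mRNA 3′ ends, with 5% Drosophila S2 material added, and total counts were used, so RNA made before and during treatment is counted together. The 3 vehicle columns are headed UT, a name that is not in the labels, and were taken as DMSO because the table is named for all 12 samples. Nothing in the labels ties replicates to separate cultures, and the p-values then speak only of spread among these libraries, possibly technical.

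The PIM loci are short, and their sequences differ in ways a reader may want beside the values. In GENCODE v29 on GRCh38, PIM1 (ENSG00000137193) lies on the plus strand at chr6:37170203-37175426, PIM2 (ENSG00000102096) on the minus strand at chrX:48913182-48919024, and PIM3 (ENSG00000198355) on the plus strand at chr22:49960513-49964080. The genes span 5224, 5843 and 3568 bp. Among 9616 protein-coding genes tested, 8.77% were shorter than PIM1, 10.0% shorter than PIM2 and 4.7% shorter than PIM3, and the median gene length was 33018 bp. Each transcript used has 6 exons, and the proteins have 313, 311 and 326 codons in PIM1, PIM2 and PIM3. PIM1 and PIM2 overlap no other annotated gene. PIM3 overlaps the microRNA gene MIR6821 on the same strand, and no last exon of a PIM gene overlaps an exon of another gene with counts.

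The region around each start is shown because RefSeq places the beginning of transcription there. The sequences are RefSeq promoters on GRCh38.p14, 250 bases before to 50 after the start, 5′ to 3′ on the gene's strand. RefSeq and GENCODE place the starts of PIM1 and PIM3 at different bases and that of PIM2 at the same one. The PIM3 window begins downstream of the GENCODE start at chr22:49960513, so all of it lies within the span of PIM3-201. The PIM1 window ends upstream of the GENCODE start at chr6:37170203. The windows span chr6:37169902-37170201 for PIM1, chrX:48918975-48919274 for PIM2 and chr22:49960522-49960821 for PIM3. Capitals mark the GC box GGGCGG on either strand and, in PIM2, also the octamer ATGCAAAT and the CCAAT box on either strand.
PIM1: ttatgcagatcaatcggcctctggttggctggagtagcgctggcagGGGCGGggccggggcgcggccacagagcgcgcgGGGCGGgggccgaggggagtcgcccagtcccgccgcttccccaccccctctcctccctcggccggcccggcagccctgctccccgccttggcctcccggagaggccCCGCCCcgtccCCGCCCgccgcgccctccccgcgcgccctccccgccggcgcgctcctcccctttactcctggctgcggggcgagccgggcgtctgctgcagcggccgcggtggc
PIM2: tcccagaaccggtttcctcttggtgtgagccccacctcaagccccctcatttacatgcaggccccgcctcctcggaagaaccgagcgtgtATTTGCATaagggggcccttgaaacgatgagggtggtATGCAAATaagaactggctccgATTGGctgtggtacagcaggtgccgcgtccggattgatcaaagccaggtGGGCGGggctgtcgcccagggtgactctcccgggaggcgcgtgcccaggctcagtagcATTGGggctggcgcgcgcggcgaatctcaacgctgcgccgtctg
PIM3: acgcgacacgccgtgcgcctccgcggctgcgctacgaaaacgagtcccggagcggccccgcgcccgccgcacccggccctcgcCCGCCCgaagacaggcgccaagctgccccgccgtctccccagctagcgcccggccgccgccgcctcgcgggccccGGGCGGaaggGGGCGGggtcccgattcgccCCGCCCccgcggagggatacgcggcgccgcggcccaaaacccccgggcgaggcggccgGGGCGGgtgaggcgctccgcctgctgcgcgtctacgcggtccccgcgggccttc
PIM1 and PIM3 have promoters richer in G and C (79.7% and 81.3%) than 97.1% and 98.4% of 35116 promoters of the same length, whereas PIM2 has 62.3%, above 59.5% of them. The GC box was found 4 times in PIM1, once in PIM2 and 5 times in PIM3, and 45.0% of all promoters hold at least 1. PIM2 alone of the family held the octamer, 2 times, once on each strand. At least 2 octamers occur in 0.0399% of promoters and at least 1 in 1.77%. PIM2 also held CCAAT 2 times, as 10.8% of promoters do at least. The STAT motif TTCNNNGAA (7.66% of promoters), the TATA box TATAAA (11.5%), the cyclic AMP response element TGACGTCA (1.85%) and the E-box CACGTG (7.26%) were not in these windows. Both strands were searched for all 7 motifs, which were chosen after the sequences had been seen, and no capital stretch overlaps another. A match is a match of letters only.

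The 3′ untranslated regions are shown where they carry AU-rich letters, letters known for directing mRNA decay. Positions count from the first base after the stop codon of the transcripts used, and capitals mark ATTTA and the nonamer TTATTTATT, which run together in PIM1.
PIM1, 895 to 924: gttatgtATTTATTTATTTATTTATTtggt
PIM2, 909 to 938: gtgtggaaacccactATTTAataaaagtaa
PIM3, 490 to 519: cggggctATTTAttgtttaATTTAtttgtt
PIM1 has 5 ATTTA in a 3′ untranslated region of 1335 bases, 4 of them in this overlapping run. PIM2 has 2 in 949 bases and PIM3 has 4 in 953 bases. These counts are common, since 34.4% of coding genes with such a region have at least 5 ATTTA, 40.6% at least 4 and 59.2% at least 2. The nonamer TTATTTATT occurred 3 times in PIM1, each copy overlapping the next, and was absent from PIM2 and PIM3. At least 1 nonamer was present in 9.58% of 9587 coding genes with such a region, and at least 3 in 0.668%. These searches read the strand of the mRNA.

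Human counts ran from 5048370 in AZ5576 replicate 2 to 12743630 in AZ5576 replicate 1. In every group 9 of 10 myeloid markers averaged over 1 CPM (counts per 1000000, scaled by TMM), while CD14 lay between 0 and 0.501 CPM. Summed myeloid markers came to 906 to 994 CPM in AZ5576, 1006 to 1048 in THZ531, 825 to 893 in YKL5124 and 722 to 762 in DMSO. These sums were thus higher than in DMSO under each inhibitor, both where PIM genes were higher and where they were lower. Their part in the results was not tested. ELANE weighed most in the sums, with mean CPM of 533 in AZ5576, 577 in THZ531, 456 in YKL5124 and 386 in DMSO. Under each inhibitor most other myeloid markers had higher means than in DMSO, but not all did. Of 8 markers of T, B, erythroid, epithelial, fibroblast and liver cells, CD3E and HBB were at 0 in all 12 libraries. These 8 markers summed to 4.95 to 9.51 CPM in AZ5576, 8.72 to 11.3 in THZ531, 8.16 to 8.95 in YKL5124 and 7.47 to 9.52 in DMSO.

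All 3 PIM genes were lower after AZ5576 and after YKL5124 than in DMSO, and PIM1 had the lowest log2 fold change of the family each time. After THZ531 the family split with TMM scaling, with PIM1 and PIM3 higher and PIM2 slightly lower than in DMSO. With fly spike-in scaling the THZ531 log2 fold changes were 0.22 for PIM1, -0.08 for PIM3 and -0.57 for PIM2, and only that of PIM2 was called. Called means an adjusted p below 0.05 in edgeR's quasi-likelihood test over 15831 genes. For AZ5576, 3 of 3 PIM genes were called lower where 23.1% of all genes tested were, and for YKL5124 3 of 3 where 13.5% were. For THZ531, 2 PIM genes were called higher and 1 lower, where 30.4% of all genes tested were higher and 32.9% lower. TMM sets each change against the middle of the human genes, and in bulk libraries fewer cells of a type and less RNA per cell cannot be told apart.

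PIM1 mRNA fell to a small fraction of its vehicle level under YKL5124 and AZ5576. Its level was 2.8, 3.76 and 2.75 CPM in AZ5576 replicates 1 to 3, 17.6, 17.2 and 16.7 in THZ531, 1.7, 1.96 and 1.5 in YKL5124, and 11.6, 12.8 and 10.2 in DMSO. All YKL5124 libraries were below all AZ5576 libraries, these below all DMSO libraries, and all THZ531 libraries were above every other. The means were 3.1 ± 0.57 CPM in AZ5576, 17.2 ± 0.45 in THZ531, 1.72 ± 0.23 in YKL5124 and 11.5 ± 1.3 in DMSO (SD, n = 3 each). These levels rest on few reads, namely 35, 19 and 33 counts in AZ5576, 135, 156 and 156 in THZ531, 14, 21 and 18 in YKL5124, and 157, 134 and 130 in DMSO. The exact 95% Poisson interval of YKL5124 replicate 1 was 0.928 to 2.85 CPM and that of the lowest DMSO library 8.54 to 12.1 CPM, which covers counting error only.

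In the test across all genes PIM1 was 6.68-fold lower in YKL5124 than in DMSO, a log2 fold change of -2.74 (SE 0.18, 95% interval -3.11 to -2.37, edgeR adjusted p = 9.56e-13). Of 15831 genes, 5 (0.0316%) had a lower log2 fold change under YKL5124. Under AZ5576 PIM1 was 3.87-fold lower, at -1.95 (SE 0.16, interval -2.29 to -1.62, edgeR adjusted p = 6.42e-11), and 282 genes (1.78%) had a lower value. Under THZ531 PIM1 was 1.49-fold higher, at 0.58 (SE 0.12, interval 0.32 to 0.83, edgeR adjusted p = 0.000163). That rise was 0.22 with fly spike-in scaling and was then not called (adjusted p = 0.257).

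**Figure D1:**
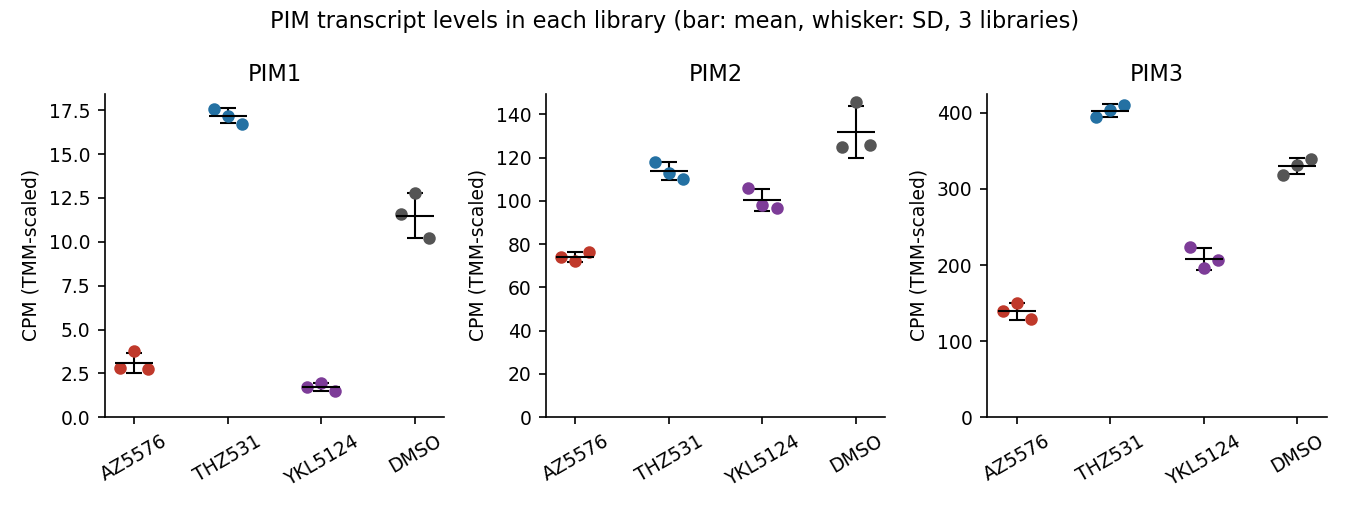
Level of each PIM transcript in CPM (TMM-scaled) on the vertical axis, with 1 point per library for AZ5576, THZ531, YKL5124 and DMSO, a bar for the mean and a whisker for the SD of 3 libraries. PIM1 ranges from 1.5 CPM in YKL5124 to 17.6 CPM in THZ531, and in each panel the AZ5576 and YKL5124 points lie below all DMSO points.

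PIM2 had the mildest response of the family to AZ5576 and YKL5124. Its level was 73.9, 72.1 and 76.6 CPM in AZ5576 replicates 1 to 3, 118, 113 and 110.3 in THZ531, 106, 98.1 and 96.9 in YKL5124, and 125, 146 and 126 in DMSO. The AZ5576 libraries were lowest, DMSO libraries were highest, and those of THZ531 and YKL5124 lay between without overlapping each other. The means were 74.2 ± 2.2 CPM in AZ5576, 114 ± 4.1 in THZ531, 100.5 ± 5.2 in YKL5124 and 132 ± 12 in DMSO (SD, n = 3 each). The log2 fold change from DMSO was -0.83 for AZ5576 (SE 0.07, interval -0.97 to -0.68, edgeR adjusted p = 9.05e-11), which is 1.77-fold lower. It was -0.39 for YKL5124 (SE 0.07, interval -0.53 to -0.25, edgeR adjusted p = 6.78e-05), or 1.31-fold lower. For THZ531 it was -0.21 (SE 0.07, interval -0.35 to -0.07, edgeR adjusted p = 0.00863), and 40.2% of genes had a lower value. The THZ531 call rested on DMSO replicate 2, the highest of the vehicle libraries, since without it the change was -0.14 (adjusted p = 0.0861). With fly scaling the THZ531 change was -0.57 and with library size alone -0.50, both called.

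PIM3 lay between its relatives in the size of its falls. Its level was 139, 150.4 and 129 CPM in AZ5576 replicates 1 to 3, 394, 404 and 411 in THZ531, 224, 196 and 206 in YKL5124, and 319, 332 and 339.9 in DMSO. No 2 groups overlapped. The means were 139 ± 11 CPM in AZ5576, 403 ± 8.3 in THZ531, 208 ± 14 in YKL5124 and 330.1 ± 11 in DMSO (SD, n = 3 each). PIM3 was 2.38-fold lower in AZ5576 than in DMSO, at -1.25 (SE 0.07, interval -1.38 to -1.12, edgeR adjusted p = 1.51e-15). In YKL5124 it was 1.59-fold lower, at -0.66 (SE 0.06, interval -0.79 to -0.54, edgeR adjusted p = 2.26e-09). In THZ531 it was 1.22-fold higher, at 0.29 (SE 0.06, interval 0.16 to 0.42, edgeR adjusted p = 0.000185). That rise turned to -0.08 with fly scaling and 0.00 with library size alone, neither called.

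The scaling matters most for THZ531. Relative to fly counts the median of all genes was -0.17 under AZ5576, -0.37 under THZ531 and -0.07 under YKL5124, against 0.01, 0.00 and 0.00 with TMM. Set against that median of -0.37, PIM1 at 0.22 and PIM3 at -0.08 lay above it under THZ531 and PIM2 at -0.57 below it. For AZ5576 the fly-scaled changes were -2.11 in PIM1, -1.01 in PIM2 and -1.44 in PIM3. For YKL5124 they were -2.79 in PIM1, -0.46 in PIM2 and -0.74 in PIM3. All 6 of these falls were called.

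**Figure D2:**
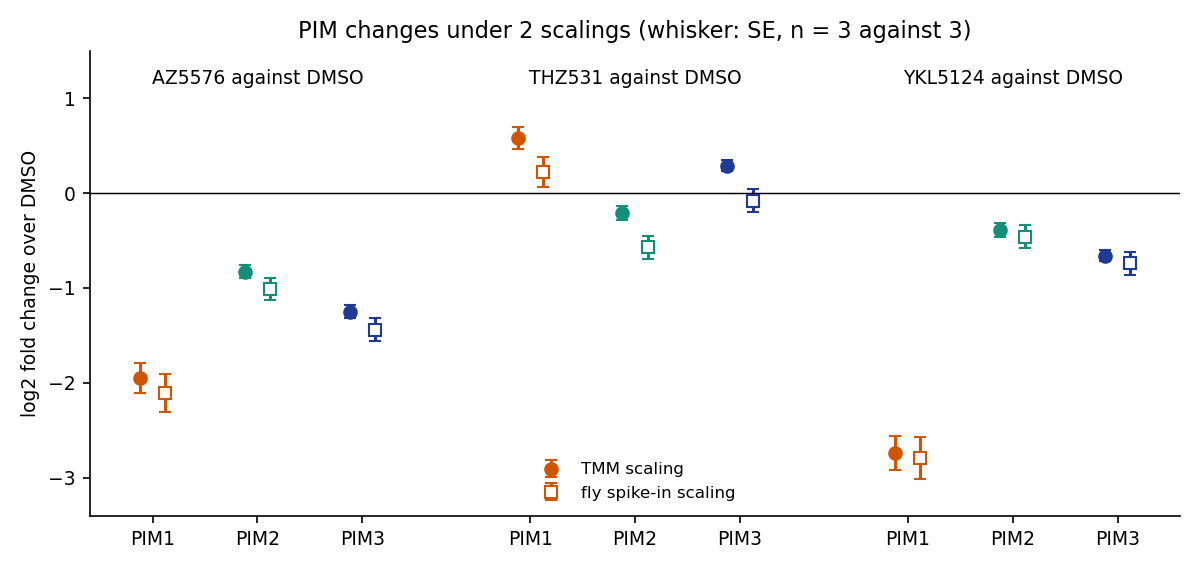
Log2 fold change from DMSO on the vertical axis for PIM1, PIM2 and PIM3 under each inhibitor, with TMM scaling as filled circles and fly spike-in scaling as open squares (whisker: SE, 3 libraries against 3). Under THZ531 PIM1 is at 0.58 with TMM and 0.22 with fly scaling, and PIM3 at 0.29 and -0.08, while the falls under AZ5576 and YKL5124 keep their sign.

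**Figure D3:**
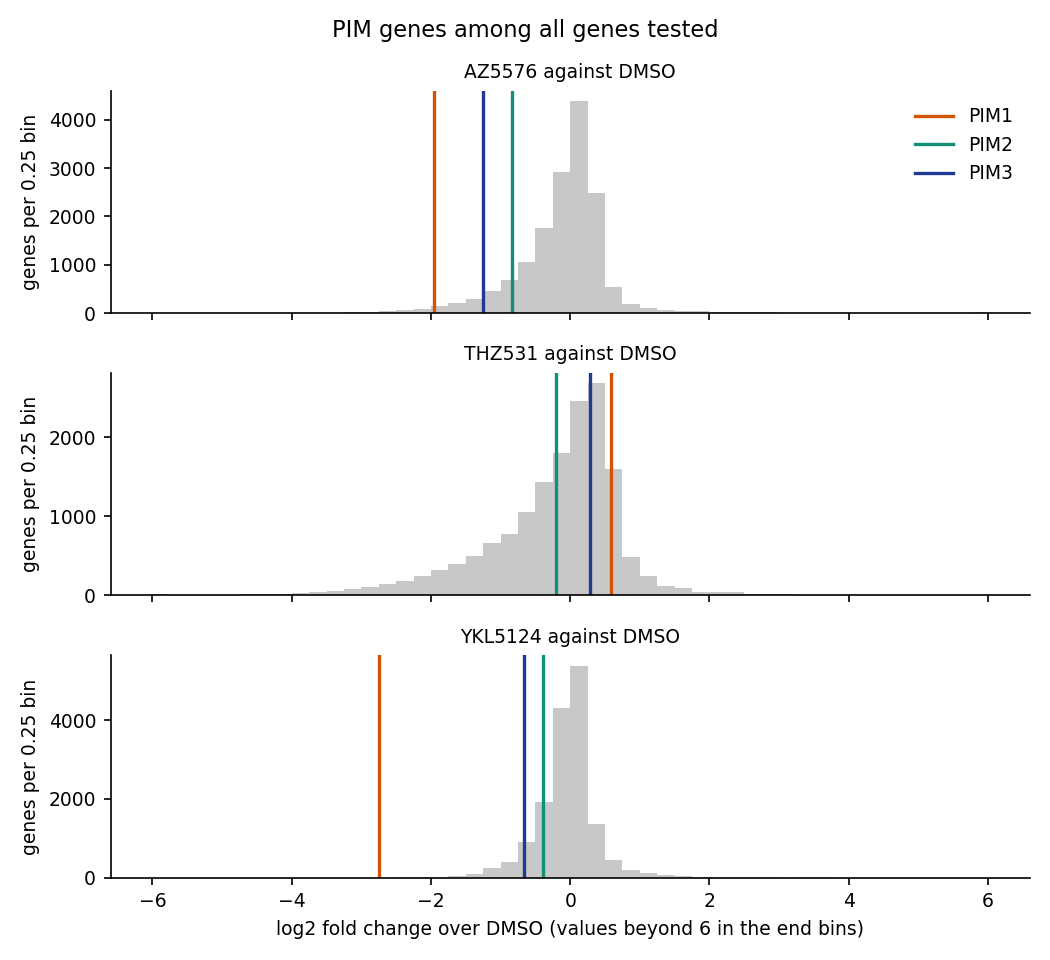
Histogram of the log2 fold changes of all 15831 genes tested (horizontal axis) as numbers of genes per bin (vertical axis), 1 panel for each inhibitor against DMSO, with a vertical line for each PIM gene. The PIM1 line stands at -2.74 in the YKL5124 panel, where 5 genes are lower, and at 0.58 in the THZ531 panel, where 86.8% of genes are lower.

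The order of the 4 levels was not the same in the 3 genes. With TMM, from highest to lowest, it was THZ531, DMSO, AZ5576 and YKL5124 for PIM1 and DMSO, THZ531, YKL5124 and AZ5576 for PIM2. For PIM3 it was THZ531, DMSO, YKL5124 and AZ5576. The places of THZ531 in PIM2 and PIM3 depended on the scaling. With fly scaling PIM3 in THZ531 was at -0.08 against DMSO, and PIM2 in THZ531 at -0.12 against YKL5124, neither called. Between AZ5576 and YKL5124, PIM1 was higher in AZ5576 by 0.79 on the log2 scale (SE 0.24, interval 0.3 to 1.28, edgeR adjusted p = 0.0234), where 6.23% of all genes tested were called higher. That call did not hold in DESeq2 (0.78, adjusted p = 0.0504), nor with fly scaling (0.68), nor in a fit of only these 6 libraries (0.79), and it was lost without AZ5576 replicate 2 (0.69) or without YKL5124 replicate 3 (0.68). PIM2 and PIM3 went the other way, at -0.43 (SE 0.07, edgeR adjusted p = 6.94e-05) and -0.58 (SE 0.07, edgeR adjusted p = 1.21e-07) in AZ5576 against YKL5124, where 9.6% of all genes tested were called lower.

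Against THZ531, all 3 genes were lower in AZ5576, as were 27.1% of all genes tested. The log2 fold change of AZ5576 over THZ531 was -2.53 for PIM1, -0.62 for PIM2 and -1.54 for PIM3, with the highest adjusted p at 1.74e-08 (PIM2, edgeR). THZ531 over YKL5124 was 3.32 for PIM1 (SE 0.18, edgeR adjusted p = 4.15e-16), a 9.95-fold difference and above the values of 99.5% of genes. It was 0.95 for PIM3 (SE 0.06, edgeR adjusted p = 8.76e-14). For PIM2 it was 0.18 (SE 0.07, edgeR adjusted p = 0.025), where 30.5% of all genes tested were called higher. That PIM2 difference turned to -0.12 with fly scaling and to -0.09 with library size alone, so these 2 neighbours in the order are not separated beyond the choice of scaling.

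The 3 genes were also set against each other inside each library, where no scaling between libraries enters. Counts are not per length, so only the change of a log2 ratio between groups is read (pseudocount 0.5 counts). PIM1 over PIM2 was -4.70, -4.22 and -4.78 in AZ5576 replicates 1 to 3, -2.75, -2.72 and -2.72 in THZ531, -5.92, -5.61 and -5.98 in YKL5124, and -3.42, -3.51 and -3.61 in DMSO. The difference from DMSO was -1.05 for AZ5576, 0.79 for THZ531 and -2.32 for YKL5124. PIM1 thus lost ground to PIM2 under YKL5124 and AZ5576 and gained on it under THZ531.

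PIM1 over PIM3 was -5.62, -5.28 and -5.53 in AZ5576 replicates 1 to 3, -4.48, -4.55 and -4.62 in THZ531, -6.99, -6.61 and -7.06 in YKL5124, and -4.77, -4.70 and -5.05 in DMSO. Its difference from DMSO was -0.64 for AZ5576, 0.29 for THZ531 and -2.05 for YKL5124. PIM2 over PIM3 was -0.91, -1.06 and -0.75 in AZ5576 replicates 1 to 3, -1.74, -1.83 and -1.90 in THZ531, -1.07, -0.99 and -1.09 in YKL5124, and -1.35, -1.18 and -1.44 in DMSO. Here the difference was 0.42 for AZ5576, -0.50 for THZ531 and 0.27 for YKL5124, so PIM2 gained on PIM3 under AZ5576 and YKL5124 and lost ground to it under THZ531. Inhibitor and DMSO ranges did not overlap in any of the 9 comparisons, each of which gave p = 0.1 in an exact two-sided permutation test and 0.1 after adjustment over the 9. With 3 libraries against 3 that is the smallest p the design allows, so it cannot pass 0.05.

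**Figure D4:**
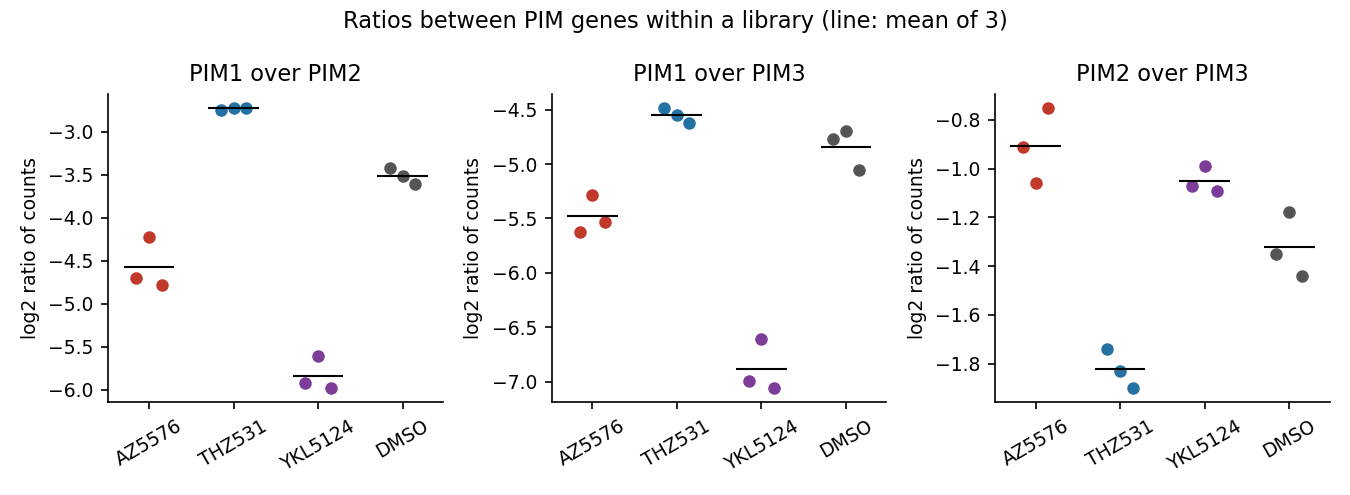
Log2 ratio of counts between PIM genes within each library (vertical axis, 1 panel per ratio) for AZ5576, THZ531, YKL5124 and DMSO, with 1 point per library and a line at the mean of 3. PIM1 over PIM2 lies lowest in YKL5124 (-5.98 to -5.61) and highest in THZ531 (-2.75 to -2.72), with DMSO between -3.61 and -3.42.

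Across the 12 libraries the log2 CPM of PIM2 and PIM3 had a Pearson r of 0.872, PIM1 and PIM3 of 0.837, and PIM1 and PIM2 of 0.64. These are descriptions of libraries that share 4 treatments, and all genes of a library share its depth. By the same measure, among 8393 genes averaging 10 CPM or more, the patterns most like that of PIM3 were those of TENT5A (r = 0.993), a poly(A) polymerase gene, MCL1 (0.99), an antiapoptotic gene, and Z95331.1 (0.99), a transcript on chromosome 22 at a distance of 4280383 bp whose last exon overlaps ATXN10. The log2 fold changes from DMSO under AZ5576, THZ531 and YKL5124 were -1.92, 0.48 and -1.23 for TENT5A and -0.90, 0.15 and -0.40 for MCL1. For PIM1 the nearest patterns were ZFP36L2 (0.98), an mRNA decay factor, ADRB1 (0.979), a beta-adrenergic receptor, and KLF11 (0.978), a zinc finger factor. Their log2 fold changes under AZ5576, THZ531 and YKL5124 were -1.28, 0.00 and -1.56 for ZFP36L2, -0.85, 0.23 and -0.96 for ADRB1, and -0.99, 0.67 and -1.43 for KLF11, beside -1.95, 0.58 and -2.74 for PIM1. For PIM2 they were the corepressor TLE3 (0.977), the zinc finger gene ZNF24 (0.976) and the amino acid transporter SLC38A2 (0.975). ZNF24 changed by -0.78, -0.23 and -0.43, close to the -0.83, -0.21 and -0.39 of PIM2, whereas SLC38A2 changed by -2.15, -0.56 and -1.23.

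The genes around the PIM kinases were read from 7 lists of 106 genes, of which 97 passed the count filter. RELA and TSC2 stand in 2 lists each. Over the lists 15 genes were called higher and 37 lower under AZ5576, where 18.6% and 23.1% of all genes tested were. Under THZ531 34 were called higher and 36 lower, beside 30.4% and 32.9% of all genes, and under YKL5124 2 and 23, beside 7.25% and 13.5%. The median log2 fold change of all genes tested, beside which each list median stands, was 0.01 for AZ5576 and 0.00 for THZ531 and for YKL5124.

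Cytokine receptors and FLT3 signal towards PIM transcription, and IFNAR2 and IL10RA among them were lower under each inhibitor. Of 15 tested, 2 were called higher and 4 lower under AZ5576 (median 0.06), 2 and 9 under THZ531 (median -0.46), and 1 and 2 under YKL5124 (median -0.09). Among all genes tested 18.6% were higher and 23.1% lower under AZ5576, 30.4% and 32.9% under THZ531, and 7.25% and 13.5% under YKL5124. The AZ5576 median was -0.06 with library size alone. IFNAR2, a subunit of the type I interferon receptor, fell under each inhibitor, with log2 fold changes of -1.10 (AZ5576), -2.71 (THZ531) and -0.58 (YKL5124). The YKL5124 value was -0.26 in its second transcript row and was not called there. Its last exon overlaps the transcript IL10RB-DT. IL10RA, the ligand-binding subunit of the interleukin 10 receptor, fell to 1.71 CPM in AZ5576, 2.97 in THZ531 and 3.76 in YKL5124, against 9.95 CPM in DMSO (log2 fold changes -2.55, -1.72 and -1.41). Its partner IL10RB rose by 0.32 under AZ5576 (edgeR adjusted p = 5.82e-05) and by 0.18 under YKL5124 (edgeR adjusted p = 0.0255), calls that were lost with fly scaling. The YKL5124 call of IL10RB was also lost without YKL5124 replicate 2 (0.17) or 3 (0.18) and without DMSO replicate 2 (0.15) or 3 (0.18). IL6R, the interleukin 6 receptor, fell to 422 CPM in THZ531, against 593 CPM in DMSO.

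Among the JAK kinases and STAT factors, STAT3 and TYK2 were called higher under AZ5576 and THZ531. Of 9 tested (JAK3 and STAT4 were not), 2 were called higher and 0 lower under AZ5576 (median 0.12), 4 and 3 under THZ531 (median 0.11), and 1 and 0 under YKL5124 (median 0.11). The shares among all genes tested were 18.6% higher and 23.1% lower (AZ5576), 30.4% and 32.9% (THZ531), and 7.25% and 13.5% (YKL5124). Most of all genes tested were thus not called under AZ5576 or YKL5124 either. STAT3 had 104 CPM in AZ5576, 115 in THZ531, 98.3 in YKL5124 and 90.1 in DMSO, with log2 fold changes of 0.21 (edgeR adjusted p = 0.0307), 0.35 (0.000256) and 0.12 (0.289). TYK2 rose by 0.28 under AZ5576 (edgeR adjusted p = 0.0449) and by 0.44 under THZ531 (edgeR adjusted p = 0.000885). STAT5B, which carries FLT3 signalling to PIM1, was at 0.24 under AZ5576 (edgeR adjusted p = 0.0625) and rose by 0.29 under YKL5124 (edgeR adjusted p = 0.0362). JAK1 was at 0.35 under YKL5124 (edgeR adjusted p = 0.222). Single libraries decided the weaker of these calls. STAT3 under AZ5576 was not called without AZ5576 replicate 1 (0.14) or 3 (0.20) or DMSO replicate 2 (0.13) or 3 (0.22), and TYK2 under AZ5576 not without AZ5576 replicate 2 (0.27) or 3 (0.24) or DMSO replicate 1 (0.27) or 3 (0.23). STAT5B under YKL5124 was not called without YKL5124 replicate 1 (0.31), 2 (0.31) or 3 (0.26) or DMSO replicate 1 (0.28) or 2 (0.25), and under AZ5576 it was called without AZ5576 replicate 3 (0.34) or DMSO replicate 3 (0.30). With library size alone no gene of this list was called higher under any inhibitor, and with fly scaling the median was -0.07 for AZ5576 and -0.25 for THZ531.

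Most other genes that STAT factors induce fell under AZ5576 and YKL5124, as did the PIM genes. Of 9 tested (CCND2, OSM and SOCS3 were not), 0 were called higher and 7 lower under AZ5576 (median -0.90), 2 and 2 under THZ531 (median -0.01), and 0 and 5 under YKL5124 (median -0.44). The shares of all genes tested were 18.6% higher and 23.1% lower under AZ5576, 30.4% and 32.9% under THZ531, and 7.25% and 13.5% under YKL5124. Under THZ531 the counts of the list were 0 and 4 with fly scaling (median -0.36) and also 0 and 4 with library size alone (median -0.30). IRF1, an interferon response factor, fell by 2.10 under AZ5576 to 5.78 CPM, against 26.5 CPM in DMSO. MCL1 had 219.9 CPM in AZ5576, 455 in THZ531, 310.3 in YKL5124 and 409 in DMSO. Its log2 fold change was -0.90 under AZ5576 and -0.40 under YKL5124, and its rise of 0.15 under THZ531 (edgeR adjusted p = 0.0268) turned to -0.21 with fly scaling and to -0.14 with library size alone. Without any 1 THZ531 library (0.12 to 0.13) or DMSO replicate 1 or 3 (0.14 each) that MCL1 rise was not called. CISH, a feedback inhibitor of STAT5 signalling, fell under each inhibitor, with log2 fold changes of -0.88 (AZ5576), -0.96 (THZ531) and -0.70 (YKL5124). ID1, an inhibitor of helix-loop-helix factors, fell by 0.44 under YKL5124. BCL6, a repressor, was at 3.86 CPM in THZ531, against 2.44 CPM in DMSO (0.64, SE 0.26, edgeR adjusted p = 0.0363). DESeq2 did not make that BCL6 call, nor was it made with fly scaling (0.28) or library size alone (0.35). It also failed without THZ531 replicate 1 (0.38) or 3 (0.65) or DMSO replicate 1 (0.61) or 2 (0.57).

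Among other transcription factors reported upstream of PIM1, EGR1 had the largest falls under AZ5576 and YKL5124. Of 10 tested (ERG and MEIS1 were not), 0 were called higher and 5 lower under AZ5576 (median -0.22), 4 and 3 under THZ531 (median 0.31), and 0 and 4 under YKL5124 (median -0.23). Beside these stand all genes tested, with 18.6% higher and 23.1% lower under AZ5576, 30.4% and 32.9% under THZ531, and 7.25% and 13.5% under YKL5124. The THZ531 median of the list was -0.06 with fly scaling and 0.02 with library size alone. EGR1, an immediate-early zinc finger factor, fell to 46.5 CPM in AZ5576 and 42.7 CPM in YKL5124, against 184 CPM in DMSO (log2 fold changes -1.99 and -2.11). HOXA9, a homeobox factor that MLL fusions keep high, rose by 1.00 under THZ531 to 118 CPM and fell by 0.83 under YKL5124 to 33.4 CPM, against 59.2 CPM in DMSO. Its last exon overlaps another gene with counts, AC004080.3, as that of REL overlaps AC010733.2. REL, an NF-kB subunit, was at -0.40 (AZ5576), -0.91 (THZ531) and -0.24 (YKL5124), all called, the last of these not with fly or upper quartile scaling or without YKL5124 replicate 1 (-0.20) or 3 (-0.21) or DMSO replicate 1 (-0.21) or 3 (-0.22). RELB, another subunit, fell by 0.94 under THZ531. KLF5, a Krüppel-like factor, fell by 1.64 under AZ5576 from a low level, to 0.51 CPM, against 1.7 CPM in DMSO.

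mRNAs of PIM substrates fell more often than they rose under AZ5576 and YKL5124, as did all genes tested. Of all genes 18.6% were called higher and 23.1% lower under AZ5576, and 7.25% and 13.5% under YKL5124. Under THZ531 these shares were 30.4% and 32.9%. Of 24 substrates tested (ABCG2 and IRS1 were not), 5 were called higher and 12 lower under AZ5576 (median -0.28), 7 and 10 under THZ531 (median -0.10), and 0 and 9 under YKL5124 (median -0.12). With fly scaling 0 were higher and 14 lower under AZ5576 (median -0.46) and 1 and 14 under THZ531 (median -0.47). Library size alone gave 0 and 14 under AZ5576 and 4 and 14 under THZ531. CXCR4, a chemokine receptor whose surface level PIM1 regulates, had 9.93 CPM in AZ5576, 16.4 in YKL5124 and 55.5 in DMSO, log2 fold changes of -2.50 and -1.77. CDC25A, a phosphatase that drives entry into S phase, fell under AZ5576 and YKL5124, with log2 fold changes of -1.31 and -1.36. RUNX3, a Runt-domain factor, fell by 0.68 under AZ5576. MYC, whose protein PIM kinases stabilise, fell by 2.30 under YKL5124 to 2.25 CPM, against 11.2 CPM in DMSO. Under THZ531 RUNX1, the Runt factor of blood formation, fell by 3.52 to 5.69 CPM, against 65.4 CPM in DMSO, and the stress kinase gene MAP3K5 fell by 2.33. FOXO1, a forkhead factor, rose by 1.32 under THZ531 to 27.2 CPM, against 10.9 CPM in DMSO.

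Among factors that act on PIM mRNA or protein turnover, ZFP36L2 had the largest falls under AZ5576 and YKL5124, and most of the list rose under THZ531. Of 11 tested, 4 were called higher and 3 lower under AZ5576 (median -0.02), 8 and 0 under THZ531 (median 0.35), and 0 and 2 under YKL5124 (median -0.13). Among all genes tested, 18.6% were higher and 23.1% lower under AZ5576, 30.4% and 32.9% under THZ531, and 7.25% and 13.5% under YKL5124. With fly scaling the THZ531 median of the list was -0.02, with 2 called higher and 3 lower, and with library size alone it was 0.06. ZFP36L2, which binds AU-rich letters and promotes decay, fell to 145 CPM in AZ5576 and 119 CPM in YKL5124, against 349.8 CPM in DMSO (log2 fold changes -1.28 and -1.56). Its relative ZFP36 fell by 0.61 under YKL5124 to 4.26 CPM, against 6.34 CPM in DMSO, which DESeq2 did not call, nor was it called without YKL5124 replicate 3 (-0.46) or DMSO replicate 1 (-0.53) or 3 (-0.46). HSP90AB1, a chaperone that keeps PIM protein stable, rose by 0.57 under THZ531, and the phosphatase subunits PPP2CB and PPP2CA, which act against PIM protein, rose by 0.73 and 0.51, of which HSP90AB1 and PPP2CA were not called with fly scaling. EIF4E, the cap-binding factor, rose by 0.48 under AZ5576 and was at 0.15 under YKL5124 (edgeR adjusted p = 0.132), and ELAVL1, which stabilises AU-rich mRNA, rose by 0.37 under AZ5576. Both AZ5576 rises were lost with fly scaling, at 0.28 and 0.17, and the second transcript rows of EIF4E and ELAVL1 had the opposite sign there (-0.58 and -0.22, neither called).

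Among the parallel PI3K, AKT and mTOR genes, PIK3R1 had the smallest adjusted p under AZ5576 and THZ531. Of 21 tested, 2 were called higher and 7 lower under AZ5576 (median -0.12), 8 and 9 under THZ531 (median -0.16), and 0 and 2 under YKL5124 (median -0.04). All genes tested also had most of their calls under THZ531, with 30.4% higher and 32.9% lower. Their shares were 18.6% and 23.1% under AZ5576, and 7.25% and 13.5% under YKL5124. The THZ531 counts depended on the scaling, with 1 higher and 13 lower with fly scaling (median -0.52) and 3 and 13 with library size alone (median -0.45). PIK3R1, the regulatory subunit of PI3K, had 98.8 CPM in AZ5576, 65.4 in THZ531, 159.7 in YKL5124 and 184 in DMSO. It fell, at -0.89 under AZ5576 and -1.49 under THZ531, although its second transcript row gave -0.10 under THZ531, not called. Its fall of 0.20 under YKL5124 (edgeR adjusted p = 0.0221) was lost in DESeq2, with fly scaling, and without YKL5124 replicate 1 (-0.18) or 2 (-0.19) or DMSO replicate 1 (-0.18) or 3 (-0.17). SGK3 and PDPK1, kinases of the same pathway, fell under THZ531 (-1.40 and -1.30), and SGK3 was at 0.19 under YKL5124 (edgeR adjusted p = 0.0763), a rise that was called without AZ5576 replicate 2 (0.20) or DMSO replicate 1 (0.26). AKT1 rose by 0.46 under AZ5576 (edgeR adjusted p = 0.000236), a call lost with fly scaling (0.27).

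**Figure D5:**
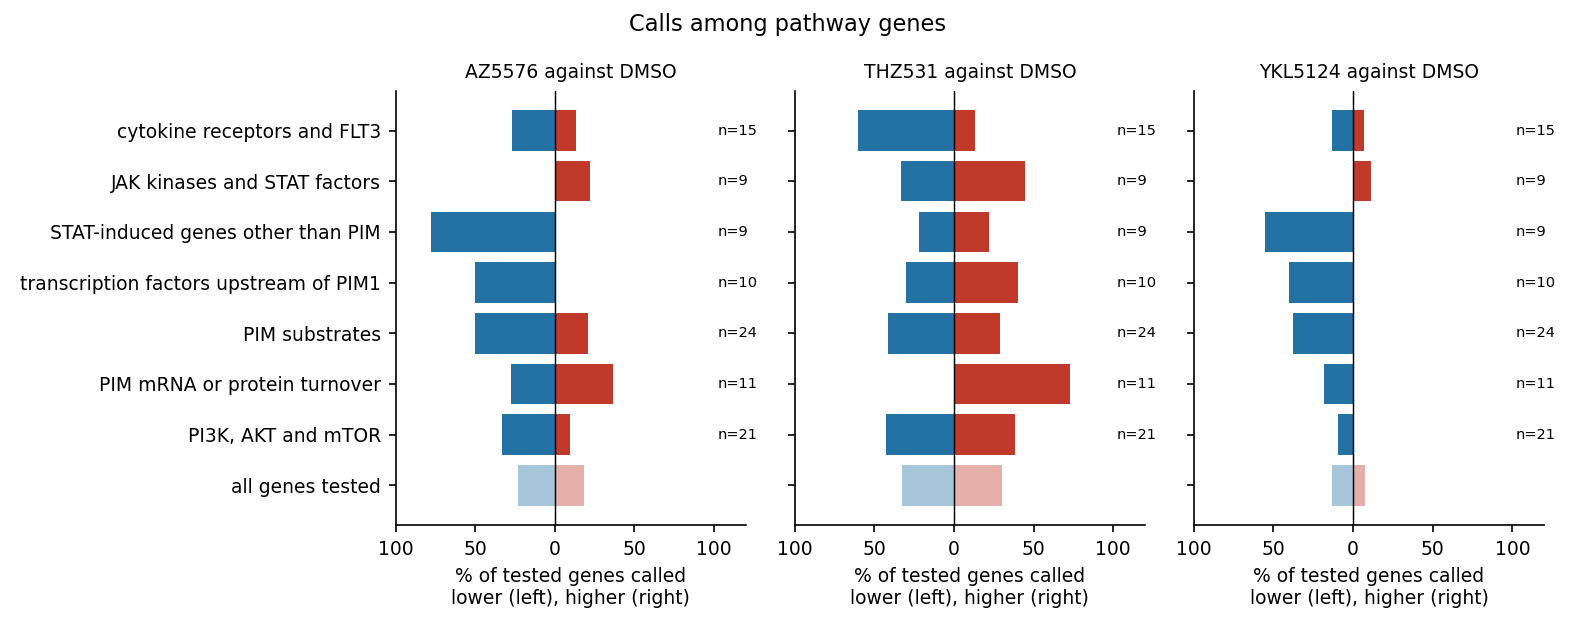
Share of tested genes of each list called higher (right, red) or lower (left, blue) in percent on the horizontal axis, for AZ5576, THZ531 and YKL5124 against DMSO, with the number tested beside each bar and all 15831 genes in pale colours at the bottom. The genes that STAT factors induce have 7 of 9 lower under AZ5576, beside 23.1% of all genes, and 5 of 9 lower under YKL5124, beside 13.5%.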

How the data were processed

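3′ end libraries of THP-1 cells (4 groups of 3) were analysed from 1 table of whole-number read counts, which the authors deposited unnormalised, with 295100 transcript rows of human and fly. Builds hg38 and dm6 are named in the submitters' processing notes, with Trim Galore 0.6.5, bcl2fastq 2.17.1.14 and edgeR 3.32.1 as tools. Not given in the sources used here are the aligner, counter, annotation, strand setting and the handling of multiply matched reads, so overlapping genes and close copies cannot be told apart.

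GENCODE v29 named 251529 of 256726 human rows. The 5197 others held 0.655% to 0.719% of human row counts and were left out. Rows of a gene overlap, so the row with the highest total stood for the gene, and 94 genes with counts identical to another gene were dropped. Tests used edgeR 4.0.16 (R 4.3.3, limma 3.58.1): filterByExpr with a minimum count of 10, TMM over human genes, and 1 quasi-likelihood fit by group over all 12 libraries, with no other term. A p is Benjamini-Hochberg adjusted over 15831 genes with a threshold of 0.05, and an SE is the size of a log2 fold change over the square root of its F value. The script was tested on simulated data. Library pairs within groups had a chi-square per gene of 1.73 to 5.00, so none was counted as a copy. Alternatives were RLE, upper quartile, library size and fly scaling, DESeq2 1.42.0, other filters, other rows, 6 libraries alone, a replicate block, other pseudocounts in the ratios and leaving out each library.

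Members and lists were chosen with earlier results of these data known. Genes named are the PIM genes, the 3 list members with the smallest adjusted p in each inhibitor comparison with DMSO, and the 3 patterns nearest to each PIM gene. Some genes that this rule or the marker lists name are not reported here. Promoters are from RefSeq and matched 3 of 3 members by symbol.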

Additional observations from a re-analysis of the deposited data

How the results depend on the processing

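Of 18 PIM log2 fold changes, 13 kept their direction and their side of the threshold in every alternative that gave a value. All 9 log2 ratio differences kept their direction, also with pseudocounts of 0 and 2, and their test could not reach the threshold under any setting. The second-row alternative gave no PIM value, since no second PIM row passed the filter. With fly scaling the rises of PIM1 (0.22) and PIM3 (-0.08) under THZ531 were no longer called, and with library size alone PIM3 was at 0.00. PIM1 in AZ5576 over YKL5124 lost its call with fly scaling (0.68), in DESeq2 (0.78) and with only the 6 libraries (0.79), and ranged from 0.68 to 0.90 with 1 library left out. PIM2 under THZ531 ranged from -0.27 to -0.14 with 1 library left out, and the lowest size, without DMSO replicate 2, was not called. PIM2 in THZ531 over YKL5124 was not called with upper quartile factors (0.12), library size alone (-0.09), fly scaling (-0.12), DESeq2 (0.16), the strict filter (0.13), only the 6 libraries (0.13) or summed rows (0.17), and with 1 library left out it ranged from 0.12 to 0.23 and lost its call in 6 of 12. Beyond the scaling alternatives, the cause was not tested. List members called higher numbered 4 (library size alone) and 0 (fly scaling) under AZ5576, against 15 in the main test, and 15 and 6 under THZ531, against 34. Under YKL5124 (2 in the main test) they numbered 6 with upper quartile factors, 1 with library size alone or summed rows, 0 with fly scaling or no filter, and 0 to 3 with 1 library left out. Of 60 named list results, 38 kept direction and call throughout. Second rows turned EIF4E (-0.58), ELAVL1 (-0.22) and STAT5B (-0.98) under AZ5576. Library size alone turned MCL1 under THZ531 (-0.14), and fly scaling turned MCL1 (-0.21) and STAT3 (-0.02) there. Same-numbered libraries did not consistently deviate together (r from -0.335 to 0.239, with 0 of 6 group pairs above 0.1 throughout). As the deviations are from means of 3 libraries, this cannot show whether equal numbers share a culture or batch. With a replicate block PIM1 under AZ5576 was at -1.93, no PIM call changed, list members higher under AZ5576 numbered 14, and 59 of 60 named results were as in the main test, TYK2 under AZ5576 being the exception. PIM1 counts of 14 to 35 in AZ5576 and YKL5124 libraries limit its precision.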

Other observations

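PIM levels can also be read per fly count, a scale that does not use the human genes. PIM1 had 25.5, 30.0 and 25.1 counts per 1000000 fly counts in AZ5576 replicates 1 to 3, 136, 129.5 and 134 in THZ531, 15.5, 18.6 and 14.9 in YKL5124, and 111, 116 and 116 in DMSO. On this scale the THZ531 libraries were still above all DMSO libraries. PIM2 had 912, 853 and 883 in THZ531, against 1184, 1325 and 1431 in DMSO, so its groups did not overlap. PIM3 had 3040.4, 3039 and 3288 in THZ531, against 3027, 3013 and 3870.5 in DMSO. All 3 THZ531 values lay inside the DMSO range, but DMSO replicate 3 alone set its upper end, and they were above DMSO replicates 1 and 2. DMSO replicate 3 had 1116910 fly counts beside 11820215 human counts. Replicate 1 had 1420584 beside 12518273, and replicate 2 had 1156879 beside 9798974.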
